A study of Mus musculus with 14 samples.

Results

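Bulk RNA-seq of the hippocampus was compared between 4 MRL mice and 3 C57BL/6 mice, which make up 7 of the 14 libraries of the study, over all 55536 Ensembl genes of the count table. Both groups had intact IRAK4, so the comparison addresses lupus-prone mice whose kinase was active. The MRL mice were B6.MRL-Faslpr/J mice, which carry the lpr mutation of Fas in every cell of the body on a C57BL/6 background, and the C57BL/6 mice were labelled C57BL6/J and carried neither this mutation nor a treatment. The remaining libraries came from 4 MRL-IRAK4-KD and 3 IRAK4-KD mice, which carry a kinase-dead form of IRAK4 with and without the lpr mutation, and they entered the fit to estimate the spread between mice. All mice were 10 months old, each gave 1 library, and brains were perfused with cold PBS before the hippocampus was taken. The C57BL/6 mice were purchased, whereas the MRL mice and both kinase-dead lines came from a colleague's laboratory, so that genotype and colony of origin cannot be told apart.

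Fas is a receptor of the TNF receptor superfamily that starts apoptosis when bound by its ligand, and the lpr allele carries a transposon in an intron of the gene. Lymphocytes that should die through it accumulate in lpr mice, which form autoantibodies and develop a disease resembling lupus. Interferons, which are raised in lupus, act through JAK kinases and STAT factors and switch on antiviral genes, the interferon-inducible GTPases and the genes of MHC class I presentation, while IRAK4 is the kinase that passes signals from Toll-like receptors and the interleukin-1 receptor to NF-kappa-B and interferon regulatory factors. The hippocampus holds neurons needed for memory, glia, and vessels whose endothelium forms the blood-brain barrier.

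Total counts were 476395168 to 572398312 in MRL and 279941472 to 401326171 in C57BL/6 libraries, so every MRL library was deeper than every C57BL/6 library. A deposited count is not 1 read, since totals came to 1.8 to 2.08 counts per sequenced read for a reason that was not tested. Levels of single mice are given as CPM, which are counts scaled to the library total adjusted by the TMM factor of edgeR. Differences are log2 fold changes of MRL over C57BL/6 from edgeR. The ± after a difference is a standard error derived from the test, as the absolute difference over the square root of its F statistic. Genes of the hippocampus were present in each library, with Prox1, a transcription factor of dentate granule neurons, at 56.4 to 124 CPM in MRL and 55.9 to 107 CPM in C57BL/6 mice. MRL mouse 1 stood apart from the rest on the leading principal component of the 7 libraries (27.5% of the variance). Ttr, which marks the epithelium of the choroid plexus, reached 1269 and 1527 CPM in MRL mice 3 and 4 against 81.3 to 392 CPM in C57BL/6 mice. Prolactin (Prl) of the pituitary reached 69.6 CPM in MRL mouse 3 and at most 3.3 CPM elsewhere among the 7 libraries. Among the kinase-dead mice, MRL-IRAK4-KD mouse 4 stood apart from all 14 libraries on the leading component (45.7% of the variance), and results are given with and without it where it decides a count.

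The mutated gene was read first. Transcript Fas-201, the protein-coding form of 9 exons, had 0 counts in all 4 MRL libraries and 584, 345 and 440 counts in C57BL/6 mice 1 to 3. Transcript Fas-204, a form of 10 exons annotated as a target of nonsense-mediated decay, had 622, 559, 505 and 964 counts in MRL mice 1 to 4 and 7, 6 and 0 counts in C57BL/6 mice 1 to 3. The groups therefore did not overlap in either transcript, and both transcripts separated the 7 libraries as labelled. Among the kinase-dead mice, Fas-201 had 0 counts and Fas-204 had 268 to 473 counts in the 4 MRL-IRAK4-KD libraries. The library labelled IRAK4-KD replicate 3 went against its label, with 0 counts of Fas-201 and 514 of Fas-204, while IRAK4-KD replicates 1 and 2 had 360 and 386 counts of Fas-201. Neither transcript passed the transcript-level test, at an adjusted p of 1 with edgeR. The whole gene Fas (chr19:34290666-34327772 of mm10) differed by 0.08 ± 0.26 on the log2 scale (edgeR, adjusted p = 1) and Irak4 (chr15:94543643-94581815) by 0.14 ± 0.18 (adjusted p = 1). Of 20 genes of Fas and death receptor signalling, only Casp8, the initiator caspase below Fas, was higher at an unadjusted p below 0.05 (0.43 ± 0.17), the median over the list was 0.09, and none was higher without MRL mouse 4 or C57BL/6 mouse 2.

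**Figure D1:**
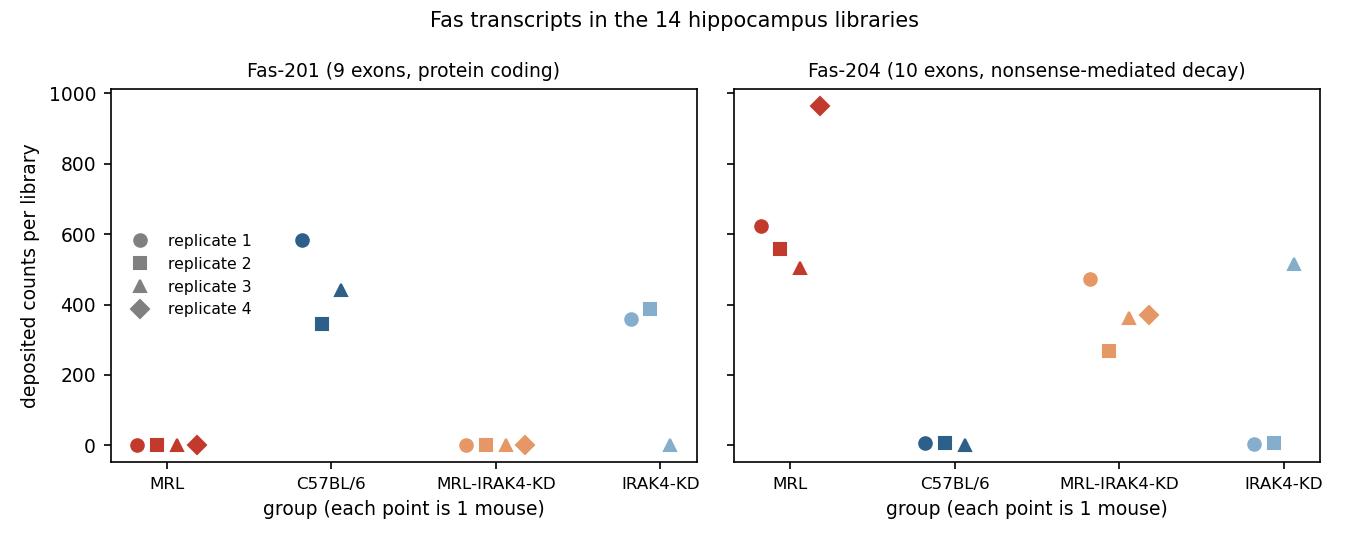
Deposited counts of Fas-201 and Fas-204 (y axis, counts per library) in the 4 groups (x axis), 1 point per mouse. All MRL mice sit at 0 for Fas-201 and at 505 or above for Fas-204, the C57BL/6 mice show the reverse, and IRAK4-KD replicate 3 sits with the lpr mice.

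No gene passed an adjusted p of 0.05 in edgeR over the 38070 genes tested (0.0% called), and the lowest adjusted p was 0.178. At an unadjusted p below 0.05, 2112 genes differed (5.55%) against the 5% that such a test gives when no gene differs, and of these 1202 were higher (3.16%) and 910 lower (2.39%) in MRL mice. Those counts were 1043 and 558 without MRL mouse 3, 942 and 520 without C57BL/6 mouse 1, 971 (2.57%) and 811 without MRL mouse 4, and 2206 (5.83%) and 1631 (4.31%) without MRL-IRAK4-KD mouse 4. With library size alone as the scaling, the split was 874 higher and 1248 lower, and the median log2 difference of all genes moved from -0.0046 to -0.06. On the same counts DESeq2 called 197 genes (0.517%), 158 higher (0.415%) and 39 lower (0.102%), and limma-voom with quality weights called 67 (0.176%), 34 higher (0.0893%) and 33 lower (0.0867%), with 41 genes called by both. Without MRL-IRAK4-KD mouse 4, which belongs to neither group but enters the estimate of the spread, edgeR called 21 genes of 37836 (0.0555%), 17 higher (0.0449%) and 4 lower (0.0106%). Of these, 18 were also called by DESeq2 and 19 by limma-voom on all 14 libraries. The genes below are therefore described by their values, and an unadjusted p below 0.05 marks members of a list without calling them changed. Of the 38070 genes tested, 1701 had every MRL mouse above every C57BL/6 mouse, and 1964 had every MRL mouse below. Many genes named below were picked by smallest p, so a lack of overlap in them is not separate support.

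The 17 genes called higher without MRL-IRAK4-KD mouse 4 fell into several kinds. Slc2a1, the glucose transporter of brain endothelium, Slc38a5, an amino acid transporter, and Cd34, Eng, Tns2 and Ushbp1 are known from endothelium or cell adhesion. Sgk1, a kinase induced by glucocorticoids, and Dbp, a transcription factor under control of the circadian clock, were also among them. Irf7, the regulator of type I interferon, and Znfx1, an antiviral RNA helicase, belong to interferon responses. Sun1 and Sun2 link the nucleus to the cytoskeleton, Gabra2 encodes a subunit of the GABA-A receptor, and Sema7a is a guidance protein. Wdfy1, Arhgef10l and Inppl1 complete the 17. The 4 called lower were A230077H06Rik, Gm44164, Gm1979 and Gm7694.

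Sun2 was 28.5, 34.9, 29 and 32.2 CPM in MRL mice 1 to 4 and 22.3, 22.7 and 21.7 CPM in C57BL/6 mice 1 to 3, so the groups did not overlap (log2 difference 0.49 ± 0.09, edgeR adjusted p = 0.325, and 0.0399 without MRL-IRAK4-KD mouse 4). Sun1 was 91.4, 108, 99.3 and 99.2 CPM in MRL mice 1 to 4 and 67.4, 63.4 and 64.5 CPM in C57BL/6 mice 1 to 3 (0.61 ± 0.30, adjusted p = 0.908, and 0.0174 without that mouse). Tns2, a focal adhesion protein, was 18.4, 17.4, 18.5 and 21.8 CPM in MRL mice 1 to 4 and 12.9, 12.7 and 11 CPM in C57BL/6 mice 1 to 3 (0.64 ± 0.12, adjusted p = 0.325). Further genes of the 15 with the smallest p among those higher in MRL mice included Igfbp7, a secreted protein of vessels (0.93 ± 0.18), Hr, a corepressor of nuclear receptors (1.00 ± 0.20), Tmem252 (1.02 ± 0.21) and Fam83d, a spindle protein (1.35 ± 0.25).

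The 36 gene lists were each read against the 3.16% of all genes that were higher and the median of -0.0046. They were chosen with earlier results of these data known, so their counts describe the lists and test nothing. By share of members higher at an unadjusted p below 0.05, the interferon-inducible GTPases had the highest share with all mice in the fit, 15 of 18, followed by transcripts of red cells, platelets and neutrophils with 16 of 20, interferon-stimulated genes with 31 of 50 and genes of endothelial adhesion and activation with 11 of 18. Fc gamma receptors had 7 of 12, MHC class I 12 of 24, the blood-brain barrier 9 of 21, and the glucocorticoid-responsive and clock lists 7 of 20 each. None of these 9 lists had a member lower at that threshold. The GTPase and blood cell counts depended on the test. With DESeq2, limma-voom and edgeR on the 7 mice alone, where 3.63%, 6.0% and 5.24% of all genes were higher, the GTPases had 8, 4 and 1 higher and the blood cell list 17, 3 and 15. By the same 3 tests the glucocorticoid-responsive list had 7, 11 and 13 and the clock list 7, 13 and 11, and the counts of the other 5 lists stayed within 1.5 times. Without MRL mouse 4 the GTPases had 6 higher, a smaller share than the 12 of the blood cell list or the 24 of the interferon-stimulated genes. MRL mouse 4 lay above the other MRL mice in the interferon and MHC class I lists. The median of the GTPases over their C57BL/6 mean was 3.43 in MRL mouse 4 and 0.44 to 0.72 in MRL mice 1 to 3, on the log2 scale. For the glucocorticoid-responsive genes the 4 MRL mice lay together, at 0.44, 0.39, 0.56 and 0.43. In bulk tissue, more cells of a type and more RNA per cell cannot be told apart. Some genes stand in several lists, such as Lcn2, Per1, Gbp2 and Lamp5.

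**Figure D2:**
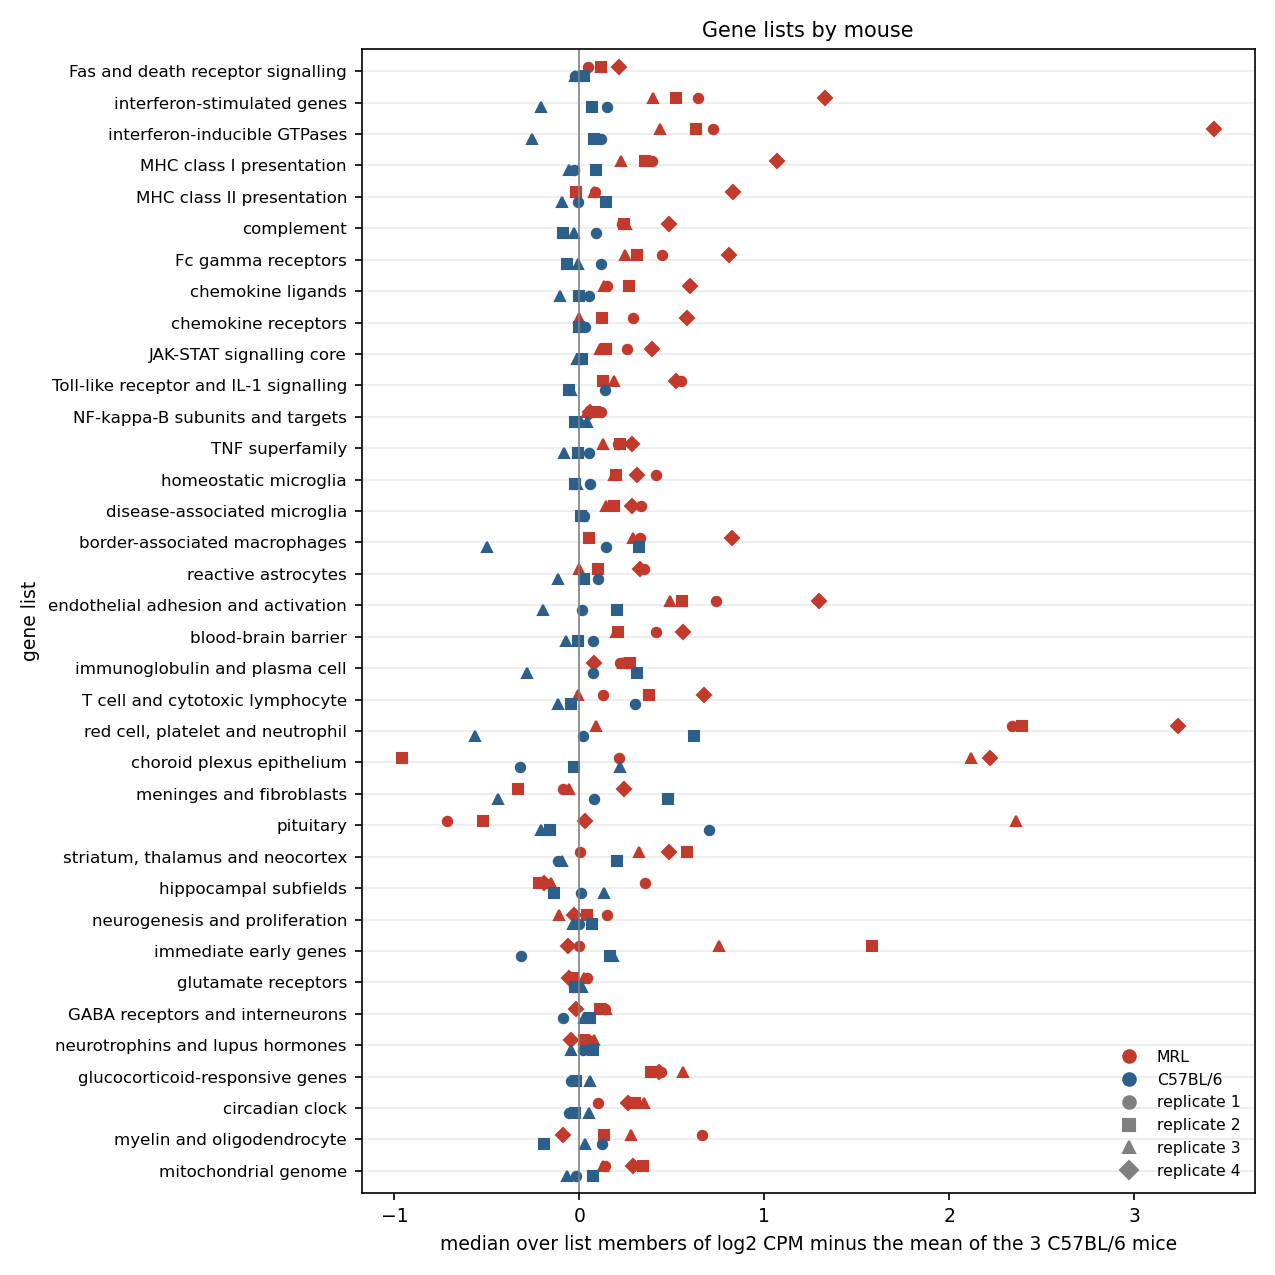
For each gene list (y axis), the median over its members of log2 CPM minus the mean of the 3 C57BL/6 mice (x axis, log2 units), with 1 point per MRL and C57BL/6 mouse. MRL mouse 4 lies at 3.43 for the interferon-inducible GTPases and 1.33 for the interferon-stimulated genes, while the MRL mice lie between 0.39 and 0.56 for the glucocorticoid-responsive genes.

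Interferon-inducible genes made up 3 of the lists. The promoters of 3 of them are printed because they carry the interferon-stimulated response element (ISRE) core, GAAANNGAAA read on either strand, through which interferon regulatory factors bind. The sequences are the 300 bases from 250 before to 50 after the RefSeq start on the GRCm38.p6 build, 5′ to 3′ on the strand of the gene, with the ISRE core in capitals. Ifih1 (minus strand, chr2:62646206-62646505) encodes the double-stranded RNA sensor MDA5, Gbp2 (plus strand, chr3:142620413-142620712) an interferon-inducible GTPase and B2m (plus strand, chr2:122147437-122147736) the light chain of MHC class I.
Ifih1: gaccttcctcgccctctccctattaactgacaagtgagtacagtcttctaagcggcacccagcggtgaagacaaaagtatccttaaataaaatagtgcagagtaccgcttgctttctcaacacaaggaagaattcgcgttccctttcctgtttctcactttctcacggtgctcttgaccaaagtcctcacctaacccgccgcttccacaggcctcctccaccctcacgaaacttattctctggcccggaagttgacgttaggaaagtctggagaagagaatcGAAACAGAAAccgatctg
Gbp2: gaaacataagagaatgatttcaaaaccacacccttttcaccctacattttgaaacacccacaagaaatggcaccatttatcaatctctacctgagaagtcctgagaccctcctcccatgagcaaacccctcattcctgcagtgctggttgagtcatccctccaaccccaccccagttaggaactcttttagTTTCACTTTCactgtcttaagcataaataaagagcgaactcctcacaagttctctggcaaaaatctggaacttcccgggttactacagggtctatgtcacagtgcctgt
B2m: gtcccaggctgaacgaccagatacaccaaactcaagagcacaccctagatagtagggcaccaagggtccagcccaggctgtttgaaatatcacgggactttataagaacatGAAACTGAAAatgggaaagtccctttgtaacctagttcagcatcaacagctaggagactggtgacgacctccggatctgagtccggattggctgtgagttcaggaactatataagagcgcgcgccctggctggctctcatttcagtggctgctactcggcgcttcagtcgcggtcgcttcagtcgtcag

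The ISRE core stood in 1131 of all 32851 promoters of this length (3.44%). It stood in 21 of the 43 promoters matched to interferon-stimulated genes (48.8%), in 10 of 12 of the GTPases (83.3%) and in 5 of 22 of MHC class I (22.7%). The STAT motif TTCNNNGAA, searched on both strands, stood in 8.3% of all promoters, 16.3% of those of interferon-stimulated genes, in 6 of the 12 of the GTPases and 9.09% of those of MHC class I, and 149 promoters held both motifs. A match of letters describes the promoter and does not show that a factor binds there.

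Among interferon-stimulated genes, the median difference was 0.82 on the log2 scale, and DESeq2 called 12 of the 50 and limma-voom 1. Irf7 was 2.73, 3.23, 2.99 and 6.02 CPM in MRL mice 1 to 4 and 1.4, 1.13 and 1.18 CPM in C57BL/6 mice 1 to 3 (1.59 ± 0.27, adjusted p = 0.221). The lowest MRL mouse lay above the highest C57BL/6 mouse, and MRL mouse 4 was highest. Ifih1 was 4.97, 4.98, 5.44 and 7.41 CPM in MRL mice 1 to 4 and 3.33, 3.34 and 2.82 CPM in C57BL/6 mice 1 to 3 (0.85 ± 0.20, adjusted p = 0.556). Rtp4, an interferon-induced chaperone, was 3.99, 3.3, 2.46 and 5.91 CPM in MRL mice 1 to 4 and 2.07, 1.9 and 1.91 CPM in C57BL/6 mice 1 to 3 (1.00 ± 0.24), and Slfn2, a growth regulator of lymphocytes, was 2.67, 1.94, 1.91 and 5.12 CPM in MRL mice 1 to 4 and 0.931, 1.26 and 1.25 CPM in C57BL/6 mice 1 to 3 (1.34 ± 0.30). In these genes too the groups did not overlap, but the gap between MRL mice 1 to 3 and C57BL/6 mice was smaller than that of MRL mouse 4. Zbp1, a sensor of Z-form nucleic acids, was 0.561, 0.487, 0.37 and 5 CPM in MRL mice 1 to 4 and 0.122, 0.108 and 0.206 CPM in C57BL/6 mice 1 to 3, so that MRL mouse 4 was far above the other MRL mice. Isg15, a ubiquitin-like protein, differed by 0.76 ± 0.30 (unadjusted p = 0.0252 with edgeR). Without MRL mouse 4, 24 of the 50 were higher and 1 was lower, the median was 0.58, and the difference of Irf7 was 1.28.

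The interferon-inducible GTPases, which attack the vacuoles of intracellular microbes, had a median difference of 1.92, and DESeq2 called 1 of them and limma-voom 0. Gbp2 was 5.94, 4.99, 4.7 and 59.3 CPM in MRL mice 1 to 4 and 3.58, 3.43 and 2.8 CPM in C57BL/6 mice 1 to 3 (2.52 ± 0.77, adjusted p = 0.692, edgeR). Tgtp1 was 3.63, 3.19, 3.67 and 41.9 CPM in MRL mice 1 to 4 and 1.52, 2.69 and 2.06 CPM in C57BL/6 mice 1 to 3, Gbp3 was 7.65, 7.41, 6.39 and 33.8 CPM in MRL mice 1 to 4 and 4.83, 4.22 and 3.22 CPM in C57BL/6 mice 1 to 3, and Gvin1 was 7.84, 5.97, 4.4 and 29.1 CPM in MRL mice 1 to 4 and 2.86, 3.78 and 2.46 CPM in C57BL/6 mice 1 to 3. In each of these genes MRL mouse 4 was far above the other MRL mice. Without MRL mouse 4, 6 of the 18 were higher at an unadjusted p below 0.05 and the median was 0.59, and the difference of Gbp2 was 0.69. Tgtp1 and Tgtp2, and the H2-Q genes below, are near-identical copies between which reads can be split, so their separate values are uncertain.

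MHC class I presents peptides to CD8 T cells and is induced by interferon. H2-D1, a heavy chain, was 45.4, 43.6, 37.3 and 85 CPM in MRL mice 1 to 4 and 25.4, 23 and 22.7 CPM in C57BL/6 mice 1 to 3 (1.16 ± 0.22, adjusted p = 0.326, edgeR). B2m was 115, 116, 92.6 and 182 CPM in MRL mice 1 to 4 and 71.2, 75.3 and 71.8 CPM in C57BL/6 mice 1 to 3 (0.79 ± 0.19). H2-Q4 differed by 1.64 ± 0.41 and H2-Q6 by 2.01 ± 0.50, with the largest value in MRL mouse 4 in both, and the differences of H2-D1, H2-Q4 and H2-Q6 were 0.85, 0.94 and 1.21 without that mouse. All 4 genes were without overlap between the groups. Over the list the median was 0.64, 0.37 without MRL mouse 4, when 9 of 24 were higher, and DESeq2 called 6 and limma-voom 0. MHC class II, which presents to CD4 T cells and is made by microglia and other phagocytes, had 1 of 12 higher, the lysosomal protease Ctss (0.53 ± 0.14), with a median of 0.44 that became -0.01 without MRL mouse 4.

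**Figure D3:**
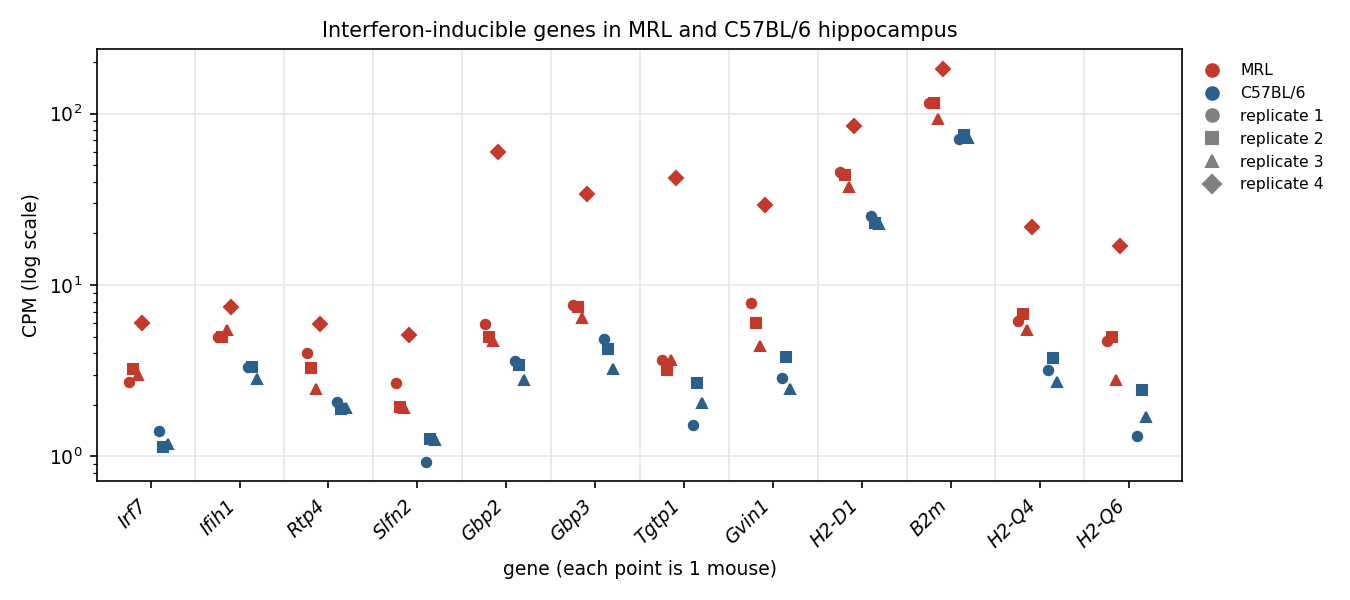
CPM on a log axis (y) of 12 interferon-inducible genes (x), 1 point per mouse for 4 MRL and 3 C57BL/6 mice. The 4 MRL points of Irf7, at 2.73 to 6.02 CPM, lie above the C57BL/6 points, and for Gbp2 and Tgtp1 MRL mouse 4 lies alone at 59.3 and 41.9 CPM.

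Of 18 genes of endothelial adhesion and activation, 11 were higher at an unadjusted p below 0.05. Vwf, the adhesion protein that endothelium stores and releases, was 29, 17.6, 18.1 and 64.4 CPM in MRL mice 1 to 4 and 12.1, 11.3 and 6.97 CPM in C57BL/6 mice 1 to 3 (1.67 ± 0.38, adjusted p = 0.547, edgeR). Icam1, the ligand of leukocyte integrins, was 3.22, 2.82, 2.71 and 6.6 CPM in MRL mice 1 to 4 and 1.58, 2.08 and 1.85 CPM in C57BL/6 mice 1 to 3 (1.06 ± 0.29). Ch25h, an oxysterol enzyme induced by interferon, was 0.447, 0.586, 0.522 and 2.25 CPM in MRL mice 1 to 4 and 0.165, 0.278 and 0.182 CPM in C57BL/6 mice 1 to 3 (2.19 ± 0.58), and Nos3, endothelial nitric oxide synthase, differed by 0.72 ± 0.19. Mouse 4 was the highest MRL mouse for Vwf, Icam1 and Ch25h, and the difference of Vwf was 1.11 at the lowest as each mouse was left out. The median over the 18 genes was 0.76, and 7 of 18 were higher without MRL mouse 4.

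The blood-brain barrier list holds transporters and junction genes. Slc2a1 was 72.8, 79.9, 68 and 94.2 CPM in MRL mice 1 to 4 and 40.3, 42.5 and 43.2 CPM in C57BL/6 mice 1 to 3 (0.91 ± 0.15, adjusted p = 0.188, edgeR, and 0.0174 without MRL-IRAK4-KD mouse 4). All 4 MRL mice were above all 3 C57BL/6 mice. Slco1a4, an organic anion transporter, was 41, 39.7, 42.9 and 54.8 CPM in MRL mice 1 to 4 and 27, 26.6 and 22.7 CPM in C57BL/6 mice 1 to 3 (0.81 ± 0.16), and Abcb1a, the efflux pump P-glycoprotein, was 25.2, 19.2, 20.7 and 34.9 CPM in MRL mice 1 to 4 and 15, 15.7 and 10.8 CPM in C57BL/6 mice 1 to 3 (0.85 ± 0.25). Slco1c1, a thyroid hormone transporter, differed by 0.46 ± 0.13. Cd34 and Eng stand outside this list and that of endothelial adhesion and activation. Cd34, a sialomucin of endothelium, was 52.1, 67.5, 58.6 and 62.9 CPM in MRL mice 1 to 4 and 30.8, 28.9 and 37.5 CPM in C57BL/6 mice 1 to 3 (0.89 ± 0.21). Eng, a coreceptor of TGF-beta, was 15.2, 14.4, 13.4 and 19.8 CPM in MRL mice 1 to 4 and 8.67, 9.02 and 8.73 CPM in C57BL/6 mice 1 to 3 (0.83 ± 0.17). Over the 21 genes of the blood-brain barrier list the median was 0.38, and 6 to 10 were higher as each mouse was left out. DESeq2 and limma-voom called 2 of them each.

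Blood cell transcripts moved with the same contrast. The summed level of the 20 genes of red cells, platelets and neutrophils was 382, 173, 90.1 and 386 CPM in MRL mice 1 to 4 and 99, 89.9 and 49.8 CPM in C57BL/6 mice 1 to 3. MRL mouse 3 lay within the range of the C57BL/6 mice and the other MRL mice above it. Of the 20, 16 were higher, with a median of 2.40, and the count was 12 to 17 as each mouse was left out but 3 with limma-voom, where the median was 1.37. DESeq2 called 5 and limma-voom 0. Alas2, the heme synthesis enzyme of red cell precursors, was 5.39, 1.65, 1.56 and 5.7 CPM in MRL mice 1 to 4 and 1.32, 1.17 and 0.929 CPM in C57BL/6 mice 1 to 3 (1.65 ± 0.46), S100a9, a calcium-binding protein of neutrophils, was 2.27, 10.1, 0.636 and 6.01 CPM in MRL mice 1 to 4 and 0.471, 0.981 and 0.347 CPM in C57BL/6 mice 1 to 3 (2.99 ± 0.88), and Ngp, of neutrophil granules, differed by 3.31 ± 0.97. Of 30 T cell and cytotoxic lymphocyte genes 0 were higher or lower at an unadjusted p below 0.05 with edgeR and all mice. Their median difference was 0.23, with 19 of the 30 positive, and 0.02 without MRL mouse 4. At that threshold 2 were higher without MRL mouse 3, and 3 without IRAK4-KD replicate 3. DESeq2, and edgeR on the MRL and C57BL/6 mice alone, each had 3 higher, and limma-voom 3 higher and 2 lower. Trac, the T cell receptor alpha chain, lay at 0.599 to 1.03 CPM in MRL against 0.95 to 1.05 CPM in C57BL/6 mice. Immunoglobulin genes had 2 of 21 higher and 1 lower, with Ighg2c at 0.611, 2.54, 1.58 and 1.38 CPM in MRL mice 1 to 4 and 0.225, 0.48 and 0.536 CPM in C57BL/6 mice 1 to 3, Ighg1 at 0.181, 0.147, 0.177 and 0.0272 CPM in MRL mice 1 to 4 and 0.0244, 0 and 0 CPM in C57BL/6 mice 1 to 3 and Jchain differing by -0.80 ± 0.34. Ighg1 had 0 counts in C57BL/6 mice 2 and 3, so no fold is given for it, and Jchain did not pass without MRL mouse 1, 3 or 4 or C57BL/6 mouse 1 or 2. The part of blood cells in the endothelial and interferon results was not tested.

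**Figure D4:**
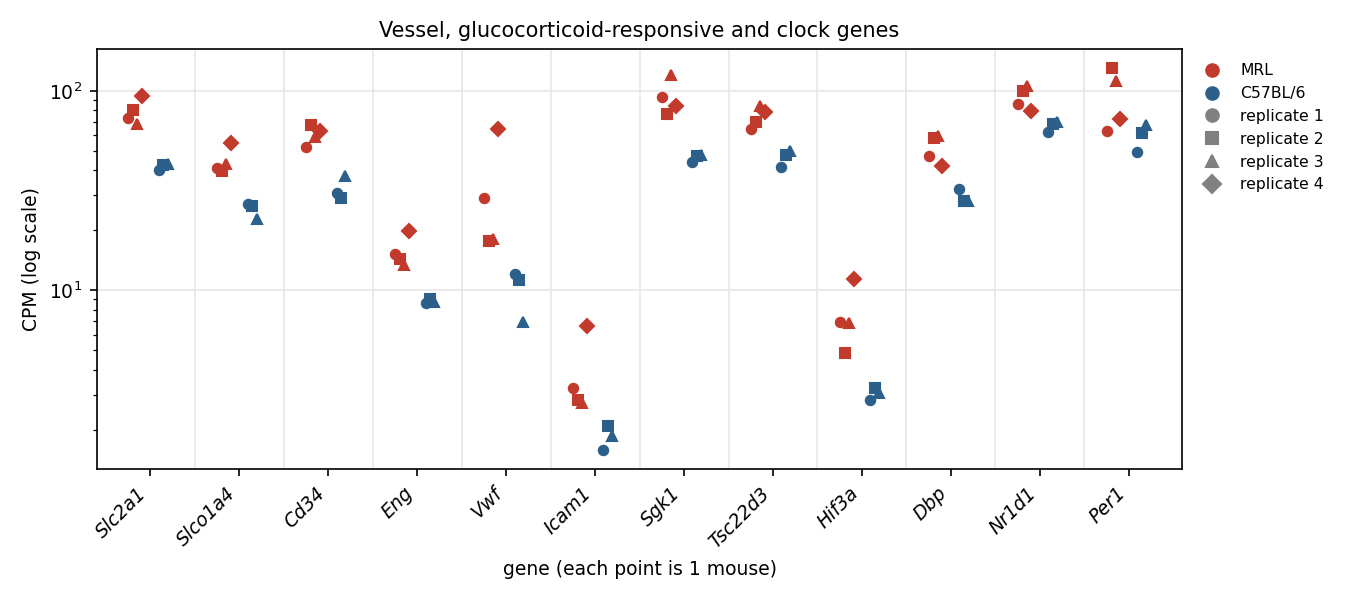
CPM on a log axis (y) of 12 genes of vessels, glucocorticoid response and circadian clock (x), 1 point per mouse. For Slc2a1 the 4 MRL mice lie between 68 and 94.2 CPM and the 3 C57BL/6 mice between 40.3 and 43.2 CPM.

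Of 20 genes known to respond to glucocorticoids, 7 were higher at an unadjusted p below 0.05. Sgk1 was 93.7, 76.8, 119.7 and 83.9 CPM in MRL mice 1 to 4 and 43.9, 47.2 and 47.5 CPM in C57BL/6 mice 1 to 3 (1.02 ± 0.16, adjusted p = 0.178, edgeR, and 0.0292 without MRL-IRAK4-KD mouse 4), with no overlap between the groups. Tsc22d3, which encodes the glucocorticoid-induced leucine zipper, was 64.4, 70.1, 83.7 and 78.5 CPM in MRL mice 1 to 4 and 41.6, 47.5 and 49.9 CPM in C57BL/6 mice 1 to 3 (0.68 ± 0.15), Hif3a was 6.94, 4.85, 6.84 and 11.4 CPM in MRL mice 1 to 4 and 2.82, 3.25 and 3.07 CPM in C57BL/6 mice 1 to 3 (1.30 ± 0.34) and Map3k6 differed by 0.90 ± 0.25. The receptor itself, Nr3c1, differed by 0.19 ± 0.11 and Fkbp5, the chaperone that glucocorticoids induce, by 0.06 ± 0.20, and neither had an unadjusted p below 0.05. The median was 0.57, and 6 to 8 of the 20 were higher as each mouse was left out. DESeq2 called 3 and limma-voom 2.

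In the clock list, Dbp was 47, 58.1, 59.7 and 42.1 CPM in MRL mice 1 to 4 and 32.1, 28 and 27.9 CPM in C57BL/6 mice 1 to 3 (0.82 ± 0.13, adjusted p = 0.188, edgeR, and 0.0244 without MRL-IRAK4-KD mouse 4), and Nr1d1, the repressor REV-ERB alpha, was 85.9, 99.4, 106 and 79.6 CPM in MRL mice 1 to 4 and 62.2, 68.3 and 69.6 CPM in C57BL/6 mice 1 to 3 (0.47 ± 0.12). Per1, a repressor within the clock, differed by 0.66 ± 0.24. Bmal1 (Arntl), at the core of the loop, differed by 0.06 ± 0.23. The median was 0.28, and 4 of 20 were higher without MRL mouse 2 or without C57BL/6 mouse 1, and 12 without MRL-IRAK4-KD mouse 4. The hour at which mice were killed is not given in the sources used here.

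Immediate early genes, which neurons switch on within minutes of activity, had 7 of 28 higher with a median of 0.69, but the mice were far apart. The median over the list in single MRL mice was 0.00, 1.58, 0.75 and -0.06. Fos was 10.4, 86.2, 34.5 and 11.9 CPM in MRL mice 1 to 4 and 8.99, 21.8 and 16.8 CPM in C57BL/6 mice 1 to 3, so only MRL mice 2 and 3 lay above the C57BL/6 range. Egr4 was 13.1, 45.2, 25.1 and 9.3 CPM in MRL mice 1 to 4 and 7.63, 10.5 and 12.5 CPM in C57BL/6 mice 1 to 3 (1.19 ± 0.44), and Ier5 and Klf4, an early response gene and a zinc finger factor of endothelium and other cells, differed by 0.72 ± 0.21 and 1.18 ± 0.39. The count fell to 2 without MRL mouse 2 or without C57BL/6 mouse 1 and to 4 without MRL mouse 3, and reached 17 without MRL mouse 1 and 19 without MRL mouse 4.

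Microglia are the resident phagocytes of the brain. Of the 17 homeostatic genes, 5 were higher and the median was 0.27, with Tmem119, a surface protein of resident microglia, at 30.1, 23.3, 23.9 and 26.9 CPM in MRL mice 1 to 4 and 19.1, 18.6 and 18.9 CPM in C57BL/6 mice 1 to 3 (0.47 ± 0.16). Csf1r, the receptor that microglia need to survive, and Cx3cr1, the fractalkine receptor, differed by 0.36 ± 0.11 and 0.27 ± 0.10. The count was 9 without MRL mouse 3, 3 without C57BL/6 mouse 3 and 11 without MRL-IRAK4-KD mouse 4. Of 24 disease-associated genes 5 were higher (median 0.21), among them Lyz2, the lysozyme of myeloid cells (0.73 ± 0.23), Ccl6 (0.86 ± 0.25) and Ctsl, a lysosomal protease (0.24 ± 0.10), with 13 higher without MRL-IRAK4-KD mouse 4 and 3 with library size alone. Of 12 genes of border-associated macrophages, only the hemoglobin scavenger receptor Cd163 was higher (0.66 ± 0.22).

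Fc gamma receptors bind IgG and link antibodies to phagocytes. Fcgr2b, the inhibitory receptor, was 4.72, 5.06, 4.86 and 8.43 CPM in MRL mice 1 to 4 and 3.8, 3.62 and 3.17 CPM in C57BL/6 mice 1 to 3 (0.71 ± 0.21), Fcgr4 was 0.249, 0.299, 0.196 and 1.36 CPM in MRL mice 1 to 4 and 0.122, 0.101 and 0.15 CPM in C57BL/6 mice 1 to 3 (2.08 ± 0.65), and Fcgr1 differed by 0.56 ± 0.18. Mouse 4 was the highest MRL mouse for both Fcgr2b and Fcgr4. The median was 0.50, and 4 of 12 were higher without C57BL/6 mouse 2 or 3. In the complement list 6 of 28 were higher (median 0.36). C1qa and C1qc, chains of the initiating molecule C1q, differed by 0.52 ± 0.23 and 0.51 ± 0.20, the receptor C5ar1 by 0.80 ± 0.26 and the integrin chain Itgb2 by 0.56 ± 0.16. That count was 3 without MRL mouse 4, 2 without C57BL/6 mouse 2, 3 with library size alone as the scaling and 11 without MRL-IRAK4-KD mouse 4.

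IRAK4 acts below the Toll-like and interleukin-1 receptors. Of 32 genes of Toll-like receptor and interleukin-1 signalling, 6 were higher, with a median of 0.29. Tlr7, the sensor of single-stranded RNA, was 4.29, 2.73, 3.36 and 4.43 CPM in MRL mice 1 to 4 and 2.95, 2 and 2.17 CPM in C57BL/6 mice 1 to 3 (0.64 ± 0.22), Unc93b1, which carries it to endosomes, differed by 0.32 ± 0.11, Cd14, a coreceptor of Tlr4, by 0.83 ± 0.26, and Tlr12 by 0.73 ± 0.26. As each mouse was left out 4 to 8 were higher, and 12 without MRL-IRAK4-KD mouse 4. Of 18 NF-kappa-B genes 2 were higher, Bcl3, a nuclear cofactor (1.97 ± 0.44), and the subunit Rela (0.25 ± 0.11), and of 34 TNF superfamily genes 2 were higher, Tnfrsf1b (0.39 ± 0.14) and Tnfsf10. Tnfsf10, which encodes TRAIL, was 3.41, 2.4, 2.24 and 13.2 CPM in MRL mice 1 to 4 and 1.92, 2.1 and 1.37 CPM in C57BL/6 mice 1 to 3 (1.57 ± 0.67), with MRL mouse 4 far above the rest, and its difference was 0.60 without that mouse. Without MRL-IRAK4-KD mouse 4 the counts of the NF-kappa-B and TNF superfamily lists were 4 and 6, with 1 lower in each list. The NF-kappa-B count was 1 without MRL mouse 3 or C57BL/6 mouse 1, and that of the TNF superfamily was 0 without C57BL/6 mouse 1 and 1 without MRL mouse 4 or C57BL/6 mouse 2 or 3.

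In the JAK-STAT list 9 of 28 were higher, with a median of 0.27. Il2rg, the common gamma chain of cytokine receptors, was 1.42, 0.772, 0.961 and 3.24 CPM in MRL mice 1 to 4 and 0.541, 0.497 and 0.292 CPM in C57BL/6 mice 1 to 3 (1.85 ± 0.47), and Cish, a feedback inhibitor that STAT5 induces, was 3.4, 4.25, 4.34 and 3.86 CPM in MRL mice 1 to 4 and 2.36, 2.55 and 2.44 CPM in C57BL/6 mice 1 to 3 (0.69 ± 0.19). Stat4 and Stat6 differed by 1.56 ± 0.49 and 0.46 ± 0.14. The count was 5 without MRL mouse 4, 6 without C57BL/6 mouse 1 and 16 without MRL-IRAK4-KD mouse 4, and DESeq2 called 2 and limma-voom 1.

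Of 41 chemokine ligand genes 5 were higher. Ccl2, which draws monocytes, was 0.2, 0.131, 0.199 and 0.134 CPM in MRL mice 1 to 4 and 0.0514, 0.0661 and 0.0393 CPM in C57BL/6 mice 1 to 3 (1.66 ± 0.45, adjusted p = 0.558, edgeR). All MRL mice were above all C57BL/6 mice, at levels under 1 CPM. Ccl12 and the platelet chemokine Ppbp differed by 1.18 ± 0.44 and 3.33 ± 1.29, and Ccl5 by 0.67 ± 0.60 (unadjusted p = 0.287 with edgeR). The list had a median of 0.26, 3 were higher without MRL mouse 4, when the difference of Ccl12 was 0.77, and 9 were higher and 1 lower without MRL-IRAK4-KD mouse 4. Of 23 chemokine receptors 4 were higher and Ccr4 was lower. Ackr2, a decoy receptor, was 1.2, 1.79, 1.38 and 1.39 CPM in MRL mice 1 to 4 and 0.647, 0.567 and 0.865 CPM in C57BL/6 mice 1 to 3 (1.05 ± 0.27), and Ccr1 differed by 1.02 ± 0.40. Without MRL mouse 4, 2 were higher and the difference of Ccr1 was 0.59. Ccr4 fell below the filter of at least 10 counts without C57BL/6 mouse 1 or 3 and was not tested there. In the 5 fits with 1 mouse left out that tested it, its difference was -6.11 to -5.47, so it rests on very few counts.

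Most genes of inflammatory cytokines were barely detected. Ifng, Il10 and Il12b were detected in MRL mouse 4 and in no other MRL mouse, at 0.0293, 0.069 and 0.00836 CPM. Il6 was 0.0408, 0.0525, 0.0634 and 0.0439 CPM in MRL mice 1 to 4 and 0.0731, 0.0557 and 0.118 CPM in C57BL/6 mice 1 to 3 (-0.71 ± 0.48) and Il12a differed by 0.82 ± 0.54. Csf1, the growth factor of microglia, was 31.5, 25.6, 26.2 and 25.9 CPM in MRL mice 1 to 4 and 26.3, 22.7 and 26.3 CPM in C57BL/6 mice 1 to 3, and the groups overlapped (0.12 ± 0.16). Bdnf, the neurotrophin of hippocampal plasticity, was 53.8, 52.1, 43.4 and 30.7 CPM in MRL mice 1 to 4 and 35.9, 38.8 and 50.6 CPM in C57BL/6 mice 1 to 3 (0.11 ± 0.17, unadjusted p = 0.542 with edgeR). None of the 22 genes of neurotrophins and lupus hormones was higher or lower, and Lhb and Cga, the subunits of luteinizing hormone, lay at 0.0735 to 0.321 and 0 to 0.76 CPM in MRL and 0.122 to 0.206 and 0 to 0.143 CPM in C57BL/6 mice. Ntrk2, the receptor of Bdnf, and Sort1, a sorting receptor, differed by 0.16 ± 0.12 and 0.09 ± 0.16.

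Reactive astrocyte genes had 6 of 35 higher (median 0.15), of which Gbp2, H2-D1, Cd14 and the lipocalin Lcn2 were the leading ones. Lcn2, an iron-scavenging acute-phase protein also found in neutrophils and endothelium, was 1.37, 2.94, 0.906 and 15.1 CPM in MRL mice 1 to 4 and 0.633, 0.56 and 0.118 CPM in C57BL/6 mice 1 to 3 (3.54 ± 1.18), with MRL mouse 4 far above the rest. Gfap, the filament protein of astrocytes, was 457, 281, 286 and 271 CPM in MRL mice 1 to 4 and 359, 319 and 386 CPM in C57BL/6 mice 1 to 3 (-0.13 ± 0.21), so the MRL mice lay on both sides of the C57BL/6 mice.

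Of 28 genes of GABA receptors and interneurons 4 were higher (14.3%), with a median of 0.08, against 7 with limma-voom and 3 to 5 as each mouse was left out. Gabra2, a subunit of the GABA-A receptor, was 289.9, 301, 260.2 and 251 CPM in MRL mice 1 to 4 and 153, 174 and 166 CPM in C57BL/6 mice 1 to 3 (0.75 ± 0.17, adjusted p = 0.549, edgeR, and 0.0174 without MRL-IRAK4-KD mouse 4), with no overlap between the groups. Gabrd, of extrasynaptic receptors, differed by 0.68 ± 0.23. Of 30 glutamate receptor genes 1 was higher, Grm2 (0.37 ± 0.13), and 1 lower, Grik4 (-0.41 ± 0.18), against 3 and 3 without MRL mouse 1, 5 and 2 without MRL-IRAK4-KD mouse 4 and 1 and 3 with library size alone. Lamp5, of neocortical and hippocampal neurons, was 38.2, 155, 85.3 and 90.9 CPM in MRL mice 1 to 4 and 36.2, 42.9 and 43.1 CPM in C57BL/6 mice 1 to 3 (1.18 ± 0.34), the neocortical factor Cux2 differed by 0.92 ± 0.33 and Rasgrf2, of upper cortical layers, by 0.51 ± 0.16. In the list of striatum, thalamus and neocortex 4 of 21 were higher (median 0.40), and their part in the neuronal values was not tested.

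Of 24 genes of hippocampal subfields 3 were higher and 1 lower, with a median of -0.01, with 2 higher and 5 lower without MRL mouse 1, 0 without C57BL/6 mouse 1 and 1 of each with library size alone. Wfs1, of CA1 neurons, and Fn1 differed by 0.28 ± 0.11 and 0.57 ± 0.25, the latter by 0.33 without MRL mouse 4. Neither direction was seen in 20 genes of neurogenesis and proliferation (median -0.01), where Hopx differed by -0.23 ± 0.16 and Tubb3 by 0.03 ± 0.12. Of 21 myelin genes 5 were higher, Cldn11, Mbp, Mal and Plin4 among them, at 0.42 ± 0.12, 0.33 ± 0.15, 0.37 ± 0.17 and 1.52 ± 0.66, the last of which was 0.96 without MRL mouse 4. The count was 10 without MRL mouse 4, 3 without MRL mouse 3, 2 without MRL mouse 1 or C57BL/6 mouse 3, 1 without C57BL/6 mouse 2 and 2 with library size alone. Of 15 genes of the mitochondrial genome 5 were higher, with mt-Nd2 at 0.37 ± 0.10, mt-Nd4 at 0.26 ± 0.10, mt-Nd5 at 0.33 ± 0.13 and mt-Cytb at 0.25 ± 0.11, with 1 without C57BL/6 mouse 1 or 3, 2 without MRL mouse 2 or 4, 1 with library size alone and 8 without MRL-IRAK4-KD mouse 4.

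Markers of neighbouring tissue differed between single mice. The 20 choroid plexus genes had a median difference of 1.43 and 2 higher, Enpp2 (1.39 ± 0.55) and F5 (1.98 ± 0.85). Their summed level was 649.7, 305, 2261 and 2555 CPM in MRL mice 1 to 4 and 382, 479 and 708 CPM in C57BL/6 mice 1 to 3, with MRL mice 3 and 4 highest. The count of higher members was 0 without MRL mouse 3 or 4 or C57BL/6 mouse 1 or MRL-IRAK4-KD mouse 4, 1 without C57BL/6 mouse 2 or 3, 4 without MRL mouse 1 and 6 without MRL mouse 2. In the pituitary list Pomc and Gnrhr of 12 were higher, with MRL mouse 3 at 4.24 CPM of Pomc, 0 were higher without MRL mouse 3 or C57BL/6 mouse 2 or 3, and 1 without C57BL/6 mouse 1. The fibroblast and meningeal list had 1 of 20 lower, the matrix protein Dcn at 29.3, 40.0, 37.9 and 37 CPM in MRL mice 1 to 4 and 55.4, 99 and 47 CPM in C57BL/6 mice 1 to 3 (-0.90 ± 0.30), with a median of -0.14, and 0 without C57BL/6 mouse 2.

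The genes with the smallest p among those lower in MRL mice held several predicted transcripts of unknown function. A230077H06Rik was 8.33, 9.55, 9.04 and 8.36 CPM in MRL mice 1 to 4 and 14.5, 12.8 and 14.5 CPM in C57BL/6 mice 1 to 3 (-0.66 ± 0.10, adjusted p = 0.178, edgeR, and 0.0174 without MRL-IRAK4-KD mouse 4). Gm16867 (chr14:69363504-69503362) was 10.2, 5.21, 3.26 and 2.98 CPM in MRL mice 1 to 4 and 23.1, 21.2 and 26.5 CPM in C57BL/6 mice 1 to 3 (-2.13 ± 0.32, adjusted p = 0.178). The groups did not overlap in either gene. Cpne7, a calcium-dependent membrane-binding protein, was 153, 139, 147 and 188 CPM in MRL mice 1 to 4 and 260.3, 314 and 268 CPM in C57BL/6 mice 1 to 3 (-0.84 ± 0.18), Pde9a, a cyclic GMP phosphodiesterase, differed by -0.48 ± 0.11, Fabp7, the fatty acid-binding protein of radial glia and astrocytes, by -0.65 ± 0.17, and Fgf11 by -0.54 ± 0.12. Pde11a, of hippocampal CA1 neurons, was 6.89, 5.74, 6.24 and 5.71 CPM in MRL mice 1 to 4 and 8.02, 12.6 and 9.02 CPM in C57BL/6 mice 1 to 3 (-0.68 ± 0.17) and Kctd6 differed by -0.35 ± 0.09.

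For some of these genes the C57BL/6 mice stood apart from every other group of the study. Mean Gabra2 was 164 ± 10.9 CPM in the 3 C57BL/6 mice (± SD) and 276 ± 23.6 CPM in the 4 MRL mice, against 387 in MRL-IRAK4-KD and 374 in IRAK4-KD mice. Wdfy1, an adaptor of endosomal Toll-like receptors, was 33.3, 52.4, 51.6 and 36.8 CPM in MRL mice 1 to 4 and 22.3, 21.3 and 21.9 CPM in C57BL/6 mice 1 to 3 and averaged 59.1 and 54.2 CPM in the kinase-dead groups. Gm16867 averaged 23.6 CPM in C57BL/6 mice, 5.4 in MRL mice and 3.19 and 2.75 in the kinase-dead groups. In IRAK4-KD mice 1 to 3, Gabra2 was 412, 338 and 373 CPM and Gm16867 was 2.84, 2.93 and 2.47 CPM. These mice carry no lpr mutation by their labels, nor by the Fas transcripts of mice 1 and 2. Sgk1 averaged 93.5 CPM in MRL, 46.2 in C57BL/6, 60.3 in MRL-IRAK4-KD and 64.4 in IRAK4-KD mice.

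**Figure D5:**
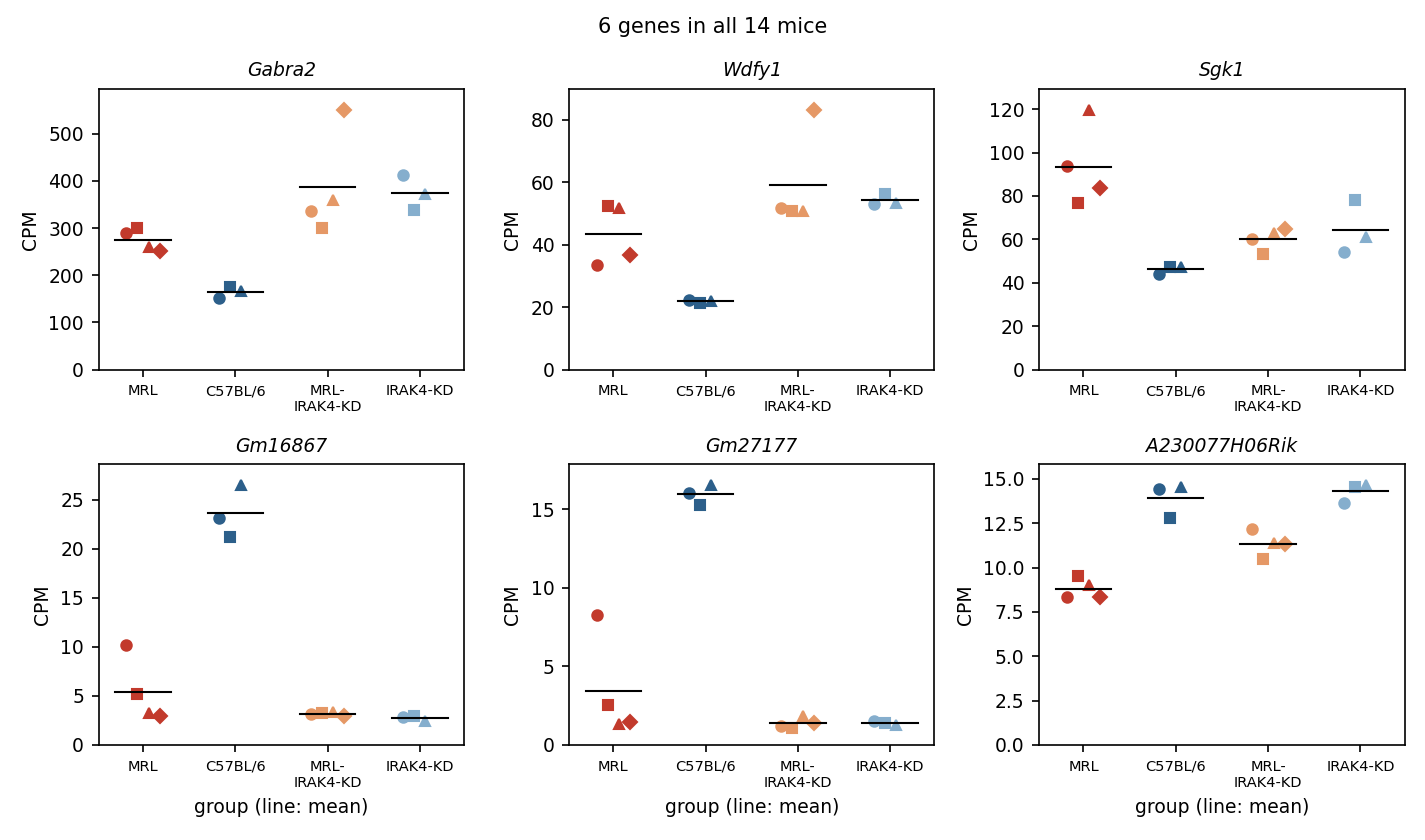
CPM (y axis) of 6 genes in the 4 groups (x axis), 1 point per mouse and a line at the mean. C57BL/6 mice are lowest for Gabra2, with a mean of 164 CPM, and highest for Gm16867, with a mean of 23.6 CPM.

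Leaving out MRL mouse 1 brought 6 calls, all lower in MRL mice (0.0158% of 37890 genes), namely Gm16867, Gm27177, Gm28643, Entpd4, Entpd4b and Lipi. In these genes MRL mouse 1 lay apart from the other MRL mice. Entpd4, a lysosomal nucleotide phosphatase, was 47.4, 27.7, 30.3 and 27.8 CPM in MRL mice 1 to 4 and 43.9, 50.1 and 46.3 CPM in C57BL/6 mice 1 to 3, and Gm27177 was 8.26, 2.56, 1.33 and 1.49 CPM in MRL mice 1 to 4 and 16, 15.3 and 16.6 CPM in C57BL/6 mice 1 to 3. Entpd4 and Entpd4b are near copies and their separate values are uncertain.

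Of 105421 transcripts tested, edgeR called 3 (0.00285%), while 4115 (3.9%) had an unadjusted p below 0.05, 2266 higher (2.15%) and 1849 lower (1.75%). The calls numbered 5 without MRL mouse 1, 7 without C57BL/6 mouse 2 and 8 without C57BL/6 mouse 3. The 3 called all had 0 counts in every C57BL/6 library. Snn-202, a protein-coding transcript of the stannin gene, had 2341, 4802, 1632 and 2852 counts in MRL mice, 1125 to 3396 in MRL-IRAK4-KD mice and 0 in every IRAK4-KD mouse, so it followed the labelled genotype in all 14 libraries, IRAK4-KD replicate 3 included. Its mean MRL level was 1965 times a floor of 3 deposited counts over the 3 C57BL/6 libraries (edgeR, adjusted p = 0.00168). A deposited count is not 1 read, so such a ratio to the floor is not a lower bound on the fold. Dbi-204, a transcript of the acyl-CoA-binding protein gene, had 417, 607, 465 and 813 counts in MRL mice (398 times the floor, edgeR, adjusted p = 0.000334). 6530402F18Rik-201 had 509, 536, 401 and 485 counts (335 times the floor, edgeR, adjusted p = 0.000134). Both of the latter were present in every kinase-dead mouse, IRAK4-KD included. The genes as a whole differed by -0.01 (Snn), -0.11 (Dbi) and -0.12 (6530402F18Rik) on the log2 scale.

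Within 2 Mb of Fas, 56 genes were tested, of which 3 were higher and 5 lower at an unadjusted p below 0.05 (14.3% against 5.55% of all genes), and none was called. The median was 0.08. Ch25h differed by 2.19 and, in the kinase-dead pair below, by -1.08. Rpp30, a subunit of ribonuclease P, differed by 0.38 and 0.51, Lipa, lysosomal acid lipase, by 0.40 and 0.34, and Gm26902 by -1.27 and -1.61 in MRL against C57BL/6 and in MRL-IRAK4-KD against IRAK4-KD mice. In the same order, Ifit1bl1 differed by -0.43 and -0.23. The remaining lower genes were AC141640.1 (-6.02 ± 2.21 and -0.75), AC134331.2 (-6.41 ± 2.48 and -0.08) and AC125259.1 (-5.01 ± 2.17 and 1.24). These 3 count toward the 14.3% despite their wide standard errors.

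The same genotype contrast was read among kinase-dead mice, in other animals than those above. MRL-IRAK4-KD against IRAK4-KD mice gave 28 calls (0.0735%), 18 higher (0.0473%) and 10 lower (0.0263%), and 3284 genes at an unadjusted p below 0.05 (8.63%), 1972 higher (5.18%) and 1312 lower (3.45%). Without the library labelled IRAK4-KD replicate 3, 11 genes were called and 1677 had such a p (4.45%), 828 higher (2.2%) and 849 lower (2.25%). Without MRL-IRAK4-KD mouse 4, 65 were called. Of the interferon-stimulated genes 11 were higher and 2 lower there, with a median of 0.44, and 5 higher and 2 lower without replicate 3. Of the GTPases 3 were higher and of MHC class I 4, each with 0 higher without replicate 3. The endothelial list had 5 and the blood-brain barrier list 8 higher, 2 and 4 without replicate 3, the glucocorticoid-responsive list 3 and then 0. Without replicate 3 and MRL-IRAK4-KD mouse 4 together, when 3.1% of all genes were higher, the endothelial list had 5 and the blood-brain barrier list 8 higher again, interferon-stimulated genes 3, MHC class I 1, and the GTPases and glucocorticoid-responsive genes 0. With all mice the blood cell list had 2 higher and 1 lower, with a median of -0.63. It had 0 higher and 2 lower without replicate 3 (median -0.80), and 0 higher and 5 lower without both libraries (median -0.95).

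The difference between the 2 contrasts was tested as an interaction, positive where MRL over C57BL/6 exceeded MRL-IRAK4-KD over IRAK4-KD. It called 1 gene, the mitochondrial tRNA mt-Tg (0.00263%), against 15 without MRL-IRAK4-KD mouse 4 and 11 also without IRAK4-KD replicate 3, and 1588 genes had an unadjusted p below 0.05 (4.17%), of which 740 were positive (1.94%) and 848 negative (2.23%). Members positive at that threshold numbered 11 of 20 in the blood cell list and 6 of 20 in the clock list. The list of striatum, thalamus and neocortex had 5 of 21, chemokine receptors 4 of 23 (with 1 negative) and chemokine ligands 5 of 41. Glucocorticoid-responsive and immediate early genes had 3 of 20 and 3 of 28, and T cell and cytotoxic lymphocyte genes 3 of 30 (with 1 negative). Interferon-stimulated genes, GTPases and MHC class I had 1 each. Without both doubted libraries, 2.3% of all genes were positive, with 12 members in the blood cell list and 7 in the clock list. The list of striatum, thalamus and neocortex then had 0, chemokine receptors 5 and chemokine ligands 8 (with 1 negative). Glucocorticoid-responsive genes and MHC class I then had 5 each, immediate early genes 3, and T cell genes, interferon-stimulated genes and GTPases 0. Lists with under 3 positive members before then had 7 of 28 in the complement list, 5 of 17 homeostatic microglia genes, 5 of 24 disease-associated microglia genes, 5 of 28 in the JAK-STAT list and at most 4 in any other. For most interferon-inducible genes a difference between the contrasts was not shown, which does not show that they were alike. Sgk1 differed by -0.09 ± 0.15 in the kinase-dead pair and by 1.02 ± 0.16 in MRL over C57BL/6 mice, and Irf7 by 1.04 ± 0.26 and 1.59 ± 0.27.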

How the data were processed

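Hippocampal RNA of 14 mice was sequenced, and 7 libraries (4 MRL, 3 C57BL/6) were compared. Reads were mapped by the authors with HISAT2 2.1.0 to mm10, who counted genes and transcripts with StringTie 2.1.0 and deposited whole-number counts without normalization. StringTie counts are computed from coverage and a read length whose setting is not given in the sources used here. Counts per sequenced read were 1.8 to 2.08 in the 7 libraries, and the reason was not tested. A deposited count or the floor of 3 counts therefore does not stand for that many reads. The standard errors were computed from these counts and include the spread between mice. The library kit differs between the paper (SMART-seq v4 with NexteraXT) and the labels (KAPA HyperPrep). Identifiers matched GENCODE M21. Of 81881 features, 26248 tRNA predictions and 97 spike-ins were not tested.

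edgeR 4.0.16 under R 4.3.3 was run on genes with at least 10 counts over 14 libraries (quasi-likelihood, robust, TMM, 4 groups), with p adjusted by the Benjamini-Hochberg method over all genes. Alternatives were DESeq2 1.42.0, limma-voom (limma 3.58.1), other scalings and filters, the 7 mice alone, thinned counts and mice left out. An exact permutation test of 4 against 3 cannot give a p below 0.0571, so none was used. Nothing says that mice came from separate litters. Tools were checked on simulated data. No pair of replicates was a repeated library (lowest chi-square per degree of freedom 70.6).

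The members and lists were chosen with earlier results of these data known. Named are Fas, Irak4, called genes, the 15 genes per direction with the smallest p at a mean CPM of at least 1, up to 4 members of each list with the smallest p below 0.05 or otherwise the 2 highest, genes within 2 Mb of Fas as counts, and genes the study measured. Others (such as Isg15, Zbp1, Prox1, Ttr, Prl, Fos, Gfap, Trac, Nr3c1, Fkbp5, Arntl, the genes called without single mice, mt-Tg, genes near Fas) were named after their values were seen. Some members of the lists are not reported by name here. Promoters come from RefSeq.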

Additional observations from a re-analysis of the deposited data

Results flagged for a closer look

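In 153 genes the 4 MRL mice were searched for 1 mouse far from the others. The cut flags about 1 in 20 such groups by chance if values are normally distributed and genes unrelated, which was not checked here. Il10, Ifng, Il12b, Gm28643 and Lipi had 0 in all other MRL mice, where any detection is flagged, so that rate does not hold for them. MRL mouse 4 stood apart, in CPM, in interferon-inducible GTPases, MHC class I genes and Irf7, namely Irf7 (6.02, others 2.73 to 3.23), H2-D1 (85, others 37.3 to 45.4), H2-Q6 (16.9, others 2.79 to 4.97), H2-Q4 (21.7, others 5.47 to 6.75), Gvin1 (29.1, others 4.4 to 7.84), Gbp2 (59.3, others 4.7 to 5.94), Gbp3 (33.8, others 6.39 to 7.65) and Tgtp1 (41.9, others 3.19 to 3.67). It also stood apart in Tmem252 (9.67, others 5.21 to 5.91), Ch25h (2.25, others 0.447 to 0.586), Icam1 (6.6, others 2.71 to 3.22), Fcgr2b (8.43, others 4.72 to 5.06), Fcgr4 (1.36, others 0.196 to 0.299), Lcn2 (15.1, others 0.906 to 2.94), Casp8 (3.7, others 2.88 to 3.02), Ccr1 (0.809, others 0.306 to 0.35), Tnfsf10 (13.2, others 2.24 to 3.41), Il10 (0.069, others 0), Ifng (0.0293, others 0), Il12b (0.00836, others 0) and Ccl21b (0.332, others 0.058 to 0.102), where Ccl21b is the copy ENSMUSG00000096873.1, 1 of several near-identical copies.

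MRL mouse 1 stood apart in Entpd4 (47.4, others 27.7 to 30.3), Gm28643 (0.0516, others 0), Csf1 (31.5, others 25.6 to 26.2) and Lipi (0.0989, others 0), and MRL mouse 3 in the pituitary genes Pomc (4.24, others 0.452 to 0.888) and Cga (0.76, others 0 to 0.0263).

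The genotype contrasts with and without active IRAK4 differed in the mitochondrial tRNA mt-Tg, with an interaction of -3.75 on the log2 scale. It differed by 0.07 ± 0.23 in MRL over C57BL/6 and by 3.83 ± 0.27 in MRL-IRAK4-KD over IRAK4-KD mice (edgeR, adjusted p = 5.77e-05), whose means were 10.9 and 0.769 CPM. The causes of these values were not tested.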

How the results depend on the processing

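With edgeR the count of called genes stayed at 0 under RLE size factors, library size alone, other filters and thinned counts, and was 0 to 6 as each mouse was left out. It was 197 with DESeq2, 67 with limma-voom, 21 without MRL-IRAK4-KD mouse 4, 20 also without IRAK4-KD replicate 3, and on the 7 mice alone 669 with DESeq2 and 14 with limma-voom, the last 3 and the thinned counts chosen after seeing the data. Genes at an unadjusted p below 0.05 numbered 4547 with limma-voom, 3174 on the 7 mice alone with edgeR, 3837 without MRL-IRAK4-KD mouse 4, 3805 without both doubted libraries, 3613 with DESeq2 and 4185 with limma-voom on the 7 mice, and 1462 to 2099 as mice were left out. Called transcripts numbered 9 on the 7 mice, 14 with limma-voom and 3 to 8 as mice were left out. The kinase-dead contrast gave 11 calls without IRAK4-KD replicate 3 and 65 without MRL-IRAK4-KD mouse 4. The interaction gave 15 without MRL-IRAK4-KD mouse 4 and 11 without both. The causes were not tested.

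Replicate numbers did not pair the mice (r of -0.0263 to 0.184 between same-numbered MRL and C57BL/6 mice). With the replicate number as a block, 0 genes were called, 2355 had an unadjusted p below 0.05, 1 of 18 GTPases and 16 of 28 immediate early genes were higher, 23 genes were called in the kinase-dead contrast and 2 in the interaction, and Lhb and Fas were -0.085 and -0.14 on the log2 scale.

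Differences near 0 turned sign. As each mouse was left out, Sort1 ranged from -0.024 to 0.18, Ccl21a (1 of 2 copies) from -0.32 to 1.11, Cga from -2.27 to 3.27, Lhb from -0.15 to 0.52, Fas from -0.18 to 0.25, Tubb3 from -0.088 to 0.15 and Thy1 from -0.078 to 0.080, all on the log2 scale. With library size alone Tubb3 was -0.027. Thy1 was 0.00014 with RLE size factors and with DESeq2, 0.0025 with halved counts and 0.0028 without MRL-IRAK4-KD mouse 4. Of the other values of single genes, 3219 kept direction and side of the threshold and 226 passed it. Without MRL mouse 4, Il10, Ifng and Il12b gave no value, and depth limits these genes, which had 0 counts in several libraries.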

Other observations

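Ccl21, a chemokine that guides lymphocytes to lymphoid tissue, is encoded by near-identical copies, among which reads can be split, so the value of each copy is uncertain. The copies did not share a direction. As each mouse was left out, Ccl21b ENSMUSG00000096873 ranged from -1.53 to -0.012 and Ccl21a ENSMUSG00000094686 from -0.92 to -0.061 on the log2 scale. Ccl21b ENSMUSG00000096271 ranged from 0.22 to 0.61 and Ccl21a ENSMUSG00000095320 from -0.32 to 1.11. Ccl21b (chr4, ENSMUSG00000095675.1) was 1.46, 3.05, 3.07 and 2.52 CPM in MRL mice 1 to 4 and 1.72, 1.92 and 1.79 CPM in C57BL/6 mice 1 to 3, with a log2 difference of 0.48 ± 0.26. The groups overlapped. Both kinase-dead groups were far lower, at 0.0103 to 0.0225 CPM in MRL-IRAK4-KD and 0.0175 to 0.0198 CPM in IRAK4-KD mice. Ccl21c was 0.615, 1.19, 1.13 and 1.36 CPM in MRL and 0.3, 0.772 and 0.236 CPM in C57BL/6 mice, with overlap and a log2 difference of 1.30 ± 0.61, and 0.00561 to 0.0161 CPM in MRL-IRAK4-KD and 0 to 0.02 CPM in IRAK4-KD mice. The cause was not tested.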
